A study of Mus musculus with 20 samples.

Results

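Liver RNA of WT mice and of mice labelled TSP-1 null was sequenced after a control diet or after CDAHFD, and the genes described here are those whose response to CDAHFD differed between the 2 genotypes. All 20 of the 20 libraries entered this comparison, 5 in each of 4 groups. For each gene, the genotype difference on the control diet was subtracted from the genotype difference on CDAHFD, on log2(FPKM + 0.1), where FPKM is a fragment count scaled for gene length and library size. This interaction log2FC equals the diet response of the null-labelled mice less that of the WT mice, so that a positive value means that CDAHFD moved the gene further up, or less far down, in the null-labelled livers. Of 38924 genes in the table, 14524 had an FPKM above 0.5 in at least 5 libraries and were tested. An FDR under 0.05 with an absolute log2FC above 0.58 was passed by 94 of them, 0.647% of those tested.

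The labels give the strain of all mice, WT and TSP-1 null, as C57/BL6. The WT mice had no targeted change, and the TSP-1 null mice are described as constitutive knockouts, meant to lack the gene in every cell type rather than in liver alone. All mice were males bought from The Jackson Laboratory at 5 weeks of age and acclimated for 1 week. Each then ate control chow or CDAHFD for 12 weeks. CDAHFD is a high fat chow that lacks choline, limits methionine and gives L-amino acids in place of protein. The groups are called NDWT (control chow, WT), NDKO (control chow, TSP-1 null), HFWT (CDAHFD, WT) and HFKO (CDAHFD, TSP-1 null), and each library came from 1 mouse. The labels place the sample in the right medial lobe and the study's methods in the right lateral lobe. Libraries held between 15641545 and 23276322 fragments. The 20 tested hepatocyte marker genes summed to between 70717.3 and 75539.7 FPKM in NDWT, 52222.1 and 70623.3 in HFWT, 78408.2 and 82640.4 in NDKO, and 63276.3 and 78372.3 in HFKO, so that every library carried the labelled tissue's transcripts. The control diet groups did not overlap in this sum, and its part in the interactions was not tested.

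Thbs1, which encodes TSP-1, was read first as a check of the labels, and it had the lowest interaction FDR of all genes. Thbs1 (chromosome 2, 118111876 to 118127133, plus strand, GRCm38) measured 0.058, 0.165, 0.17, 0.268 and 0.326 FPKM in NDWT, 3.46, 3.86, 3.91, 5.77 and 6.099 in HFWT, 0.986, 1.005, 1.13, 1.5 and 1.895 in NDKO and 3.05, 3.14, 3.304, 3.32 and 4.398 in HFKO. On the control diet, every library labelled TSP-1 null lay above every WT library, on 112 to 207 fragments against 6 to 33. On CDAHFD the 2 genotypes overlapped, and the highest null-labelled library, HFKO library 5 at 4.398 FPKM, lay above 3 of the 5 WT libraries. The genotype log2FC of Thbs1 was 2.28 (FDR = 1.02e-05) on the control diet and −0.39 (FDR = 0.408) on CDAHFD, and its diet log2FC was 4.03 in WT and 1.36 in null-labelled mice (interaction log2FC −2.67, SE 0.334, FDR = 0.002296). If the knockout lowers its transcript, Thbs1 would be lower in the null-labelled libraries. On that premise the reads go against the label on the control diet, and they do not separate the genotypes on CDAHFD. Whether the knockout allele still gives transcript reads was not tested. A gene-level FPKM does not resolve exons, so reads over the deleted stretch cannot be told apart from reads elsewhere in the gene. The groups are therefore called as labelled, and every value drawn between genotypes, the size and sign of each interaction and the count of interaction DEGs included, rests on those labels.

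Choline is needed to make phosphatidylcholine, which coats the lipoproteins that carry triglyceride out of the liver, and a diet without it loads hepatocytes with fat and brings inflammation and scarring. TSP-1 is a secreted matrix glycoprotein that binds the receptors CD36 and CD47 and can release active TGF-β from its latent complex. Heat shock proteins refold damaged proteins and are switched on by HSF1 through heat shock elements, chaperones of the endoplasmic reticulum (ER) through ER stress response elements, and clock genes through E-boxes, a hexamer that BHLHE40 and BHLHE41 also bind.

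The promoter stretches of 5 genes are printed because 2 of the gene groups described here, the chaperones and the clock genes, are known to be read through such elements. Each is the 250 bases upstream of the RefSeq start in GRCm38.p6, 5′ to 3′ on the gene's own strand, in lower case with the matched element in capitals. Hspa1b (chr17:34959239-34959488, minus strand), Hspa1a (chr17:34972157-34972406, minus strand) and Dnaja1 (chr4:40722218-40722467, plus strand) each held 1 heat shock element, searched as GAANNTTC or TTCNNGAA, the stretch of Dnaja1 being that of the most upstream of its 3 listed starts. Pdia6 (chr12:17266339-17266588, plus strand), an ER chaperone chosen after its values were seen, held 1 ER stress response element, searched as CCAAT and CCACG with 9 bases of any kind between them. Bhlhe41 (chr6:145865421-145865670, minus strand) held 1 E-box, searched as CACGTG.
Hspa1b: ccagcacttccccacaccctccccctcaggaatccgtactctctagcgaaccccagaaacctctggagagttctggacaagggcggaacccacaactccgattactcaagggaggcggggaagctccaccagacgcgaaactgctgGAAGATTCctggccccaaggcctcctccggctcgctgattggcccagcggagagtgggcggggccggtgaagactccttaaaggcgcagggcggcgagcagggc
Hspa1a: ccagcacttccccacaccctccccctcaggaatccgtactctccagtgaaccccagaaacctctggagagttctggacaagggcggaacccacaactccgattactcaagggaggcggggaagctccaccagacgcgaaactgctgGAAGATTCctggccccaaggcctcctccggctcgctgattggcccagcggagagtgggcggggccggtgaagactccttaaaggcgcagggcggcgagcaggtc
Dnaja1: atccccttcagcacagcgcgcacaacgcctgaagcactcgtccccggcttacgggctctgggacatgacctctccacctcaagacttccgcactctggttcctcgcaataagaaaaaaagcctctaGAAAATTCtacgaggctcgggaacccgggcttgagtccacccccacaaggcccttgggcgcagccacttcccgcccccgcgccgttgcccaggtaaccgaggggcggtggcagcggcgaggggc
Pdia6: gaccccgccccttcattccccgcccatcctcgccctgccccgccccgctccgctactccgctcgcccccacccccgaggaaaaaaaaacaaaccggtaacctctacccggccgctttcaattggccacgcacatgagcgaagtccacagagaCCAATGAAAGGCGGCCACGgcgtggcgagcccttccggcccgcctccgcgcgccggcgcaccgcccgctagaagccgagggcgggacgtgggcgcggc
Bhlhe41: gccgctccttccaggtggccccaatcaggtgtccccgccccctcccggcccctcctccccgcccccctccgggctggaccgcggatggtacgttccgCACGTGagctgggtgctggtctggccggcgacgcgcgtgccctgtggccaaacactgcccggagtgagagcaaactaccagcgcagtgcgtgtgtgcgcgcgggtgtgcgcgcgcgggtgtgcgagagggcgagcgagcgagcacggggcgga

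The first base of the element lay 104 bases upstream of the start in Hspa1b and Hspa1a, 124 in Dnaja1, 98 in Pdia6 and 153 in Bhlhe41. The Hspa1b and Hspa1a stretches, on chromosome 17, differed at 3 of 250 bases. Both strands were searched, matches were allowed to overlap, a stretch counted once, and a gene counted where any of its listed stretches held the motif. Of all 32851 listed promoter stretches of the same length, 12.8% held the heat shock element, 6.02% the E-box and 0.113% the ER stress response element. Of the 60 interaction DEGs with a listed stretch, 10 (16.7%) held the heat shock element, 10 (16.7%) the E-box and 0 the ER stress response element. A gene with several stretches has more places for a match, so shares of genes and shares of stretches are not like for like. A match is a description of letters and not of a bound site.

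The 94 interaction DEGs comprised 49 with a positive value (0.337% of tested genes) and 45 with a negative value (0.31%). They were 79 protein coding genes, 6 lincRNAs, 3 processed transcripts, 3 pseudogenes, 2 antisense RNAs and 1 small nucleolar RNA. Positive values ran from 0.58 to 3.27 with a median of 0.81, and negative values, over the 44 genes above 3 fragments, from −0.64 to −3.30 with a median of −1.004. Over all tested genes the median interaction was −0.03, and 15.1% had an unadjusted p under 0.05, 6.97% with a positive and 8.17% with a negative value. The median 95% interval of a single gene's interaction reached 0.403 on either side on the log2 scale. This interval is not adjusted for the number of genes tested. Calls also needed the FDR and the fold threshold, so smaller differences in response, and some larger ones, were not detectable for most genes. Diet itself passed the same test for 48.8% of tested genes in WT and 45.9% in null-labelled mice, against 4.77% for genotype on the control diet and 0.496% for genotype on CDAHFD.

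**Figure D1:**
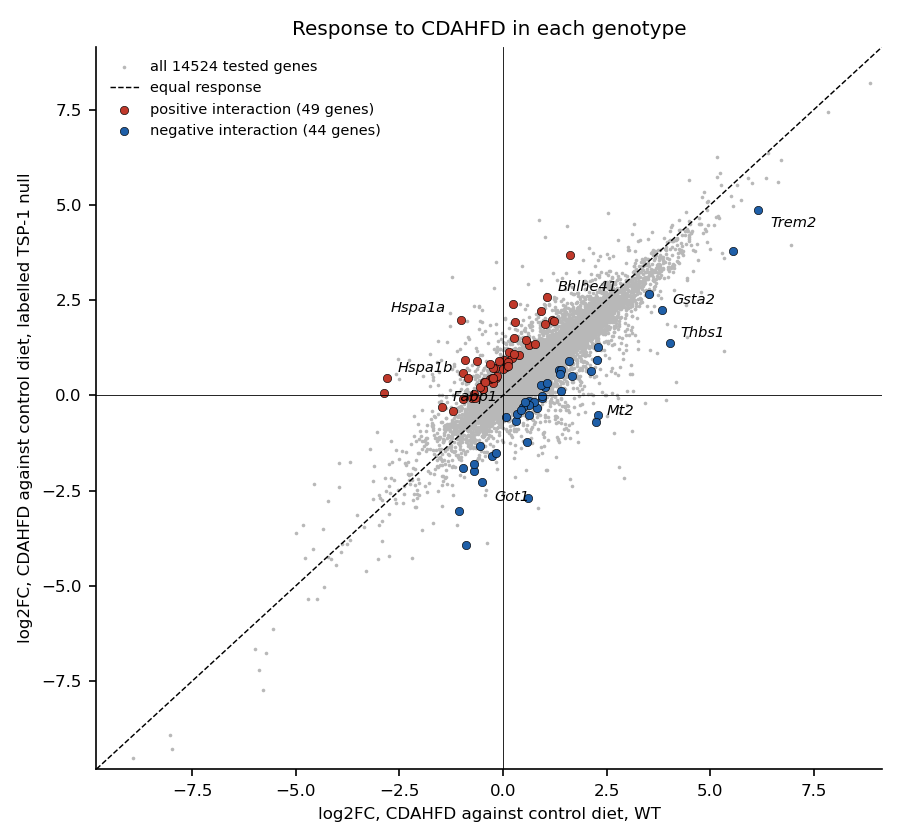
The horizontal axis gives the diet log2FC in WT mice and the vertical axis that in mice labelled TSP-1 null, for all tested genes (grey) and for the interaction DEGs above 3 fragments (49 positive, red; 44 negative, blue). Red points lie above the diagonal of equal response and blue points below it, among them Hspa1b (−2.81 in WT, 0.46 in null-labelled mice) and Thbs1 (4.03 and 1.36).

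Over all tested genes the median diet log2FC was 0.532 in WT and 0.498 in null-labelled mice on FPKM as deposited, so a gene with a diet log2FC near 0.5 moved with the table as a whole. As deposited, 6412 genes passed the diet test upward and 671 downward in WT, and 6088 and 581 in null-labelled mice. With median of ratios scaling, which sets each library by its median ratio to the mean library, these became 3299 and 2242 in WT and 3225 and 1980 in null-labelled mice, and with quantile normalization 2514 and 2562, and 2421 and 2186. The interaction is a difference between diet responses, and its median over all tested genes was −0.03 as deposited, −0.002 with median of ratios scaling and 0.001 with quantile normalization. The diet log2FCs given for single genes are those on FPKM as deposited.

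Sorted by which genotype passed the diet test, the interaction DEGs fell into 8 kinds of response, given as a description because the same libraries define the interaction. As deposited, 18 genes passed upward in null-labelled and not in WT mice, 16 upward in WT and not in null-labelled mice, 10 downward in WT and not in null-labelled mice, and 6 downward in null-labelled and not in WT mice. Of these 50 genes, 14 were under the FDR in the other genotype too and missed there by fold alone. In 19 genes both genotypes passed upward, in 5 both downward, in 4 in opposite directions and in 16 neither passed. Of all 14524 tested genes, 1408 passed in WT only and 994 in null-labelled mice only, beside 26 and 24 of the 94. Under each of the other scalings 31 of the 94 genes stayed in the same kind of response, and 21 did so under both. Those 21 included Cirbp and Lmo4, up in WT without passing in null-labelled mice, and Hspa1b, Paqr7, Ak4 and Gm15611, down in WT without passing in null-labelled mice. They also included Klhdc7a, up in null-labelled mice without passing in WT, and Crcp and Gm15622, down in null-labelled mice without passing in WT. Thbs1, Gsta2, Meg3, Trem2 and Emp2 rose in both genotypes under all 3 scalings, and 9430037G07Rik, E030018B13Rik, Asl and Agxt fell in both. Among those that changed, Slc23a2, Klf11, Mn1 and Fzd5 passed upward in null-labelled mice as deposited and downward in WT mice under the other scalings, and Rnmtl1, Rnd1 and Arrdc4 passed upward in WT as deposited and downward in null-labelled mice under the others. Of the 4 with opposite directions as deposited, Hs3st6, Raet1e, Arl4d and Snord49b, 1 kept them under both other scalings, Snord49b, which had at most 3 fragments in every library.

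For most interaction DEGs the genotypes were further apart on the control diet than on CDAHFD. Genotype passed its own test on the control diet only for 58 of the 94, on CDAHFD only for 6 (Hs3st6, Mn1, Meg3, Lhpp, Oat and Snord49b), on neither diet for 30 and on both for 0. All 49 positive genes had a lower mean in NDKO than in NDWT and all 45 negative genes a higher one. On CDAHFD 39 positive genes lay above 0 and 10 below, and 38 negative genes below 0 and 7 above. The median genotype log2FC of the positive genes was −0.701 on the control diet and 0.176 on CDAHFD, and that of the negative genes 0.788 and −0.29. The absolute genotype log2FC was smaller on CDAHFD than on the control diet for 80 genes (85.1%; 56.5% of all tested genes), and its median was 0.755 on the control diet and 0.227 on CDAHFD (0.18 and 0.149 over all tested genes). The 5 NDWT and 5 NDKO libraries did not overlap for 66 genes (70.2%; 9.03% of all tested genes), and the HFWT and HFKO libraries for 23 (24.5%; 4.98%). Since the control diet difference is one term of the interaction, its sign and size in these genes are partly fixed by their choice. Between diets, the libraries did not overlap for 53 genes in WT (56.4%; 56.2% of all tested genes) and 58 in null-labelled mice (61.7%; 57.8%). The diet response was smaller in null-labelled than in WT mice for 46 of the 94 genes (48.9%; 56.8% of all tested genes).

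**Figure D2:**
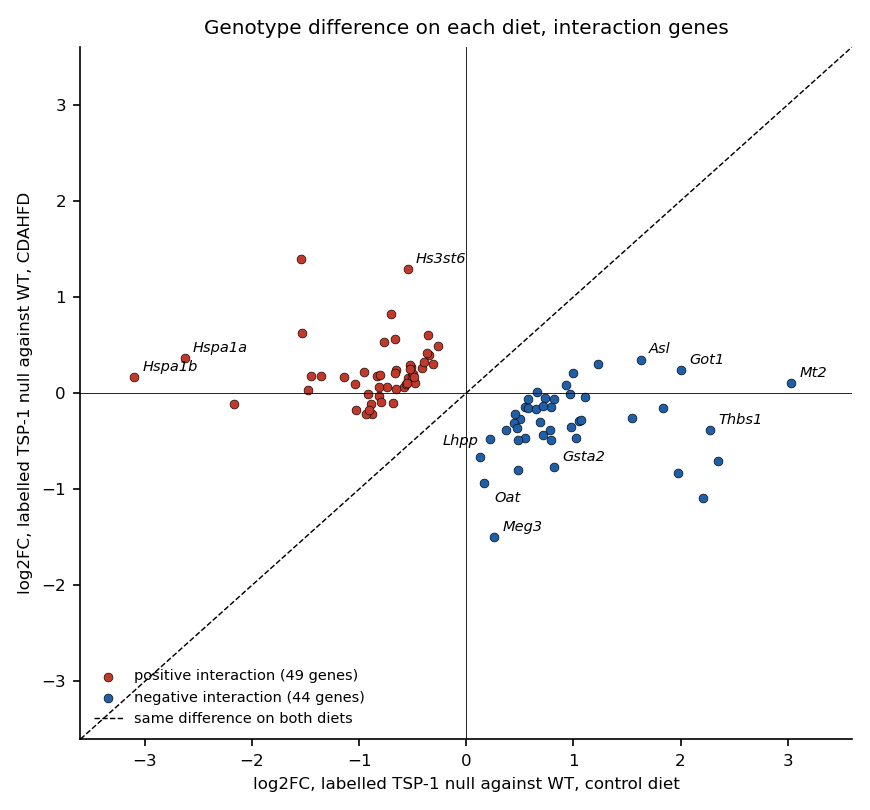
The horizontal axis gives the genotype log2FC on the control diet and the vertical axis that on CDAHFD, for the interaction DEGs above 3 fragments, with a dashed line where both would be equal (49 positive, red; 44 negative, blue). The points spread along the horizontal axis, red to the left and blue to the right. The median absolute genotype log2FC of the 94 interaction DEGs on CDAHFD was 0.227, against 0.149 over all tested genes.

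Relative to the NDWT mean, the median of the 49 positive genes was between −0.773 and −0.588 in the 5 NDKO libraries, between −0.266 and −0.128 in HFWT and between −0.039 and 0.251 in HFKO, on the log2 scale. The median of the 45 negative genes was between 0.554 and 0.999 in NDKO, between 0.843 and 1.039 in HFWT and between 0.489 and 0.700 in HFKO. The diet shift of the whole table is part of the HFWT and HFKO values. No NDKO library reached the range of the WT libraries on the same diet for either set, which again uses the values that chose the genes.

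Among the interaction DEGs, the 2 largest positive values were those of heat shock genes. Hspa1b (chromosome 17, 34956436 to 34959238, minus strand) and Hspa1a (chromosome 17, 34969199 to 34972154, minus strand) encode the stress-inducible HSP70 chaperone. Hspa1b measured 32.8, 39.3, 57.6, 82.1 and 88.4 FPKM in NDWT, 4.97, 6.001, 6.24, 12.5 and 12.99 in HFWT, 2.1, 6.67, 7.76, 8.39 and 11.8 in NDKO and 7.33, 7.4, 9.24, 9.58 and 11.4 in HFKO. The NDWT libraries stood above all 15 others, and the other groups overlapped one another. Hspa1b had a diet log2FC of −2.81 in WT (FDR = 2.01e-06) and 0.46 in null-labelled mice (FDR = 0.288), with an interaction log2FC of 3.27 (SE 0.539, FDR = 0.0101). Hspa1a was lower throughout, with means of 3.59 ± 2.55 FPKM in NDWT, 1.47 ± 0.5404 in HFWT, 0.428 ± 0.206 in NDKO and 1.98 ± 0.777 in HFKO, with an interaction log2FC of 2.99 (SE 0.639, FDR = 0.0303). Its diet log2FC was −1.01 in WT and 1.98 in null-labelled mice. The copies are near identical, with 67.6% of the 31-base words of Hspa1b transcripts also found in Hspa1a, so that the split of reads between them is uncertain. Hspa1a passed the threshold in 11 of 20 fits with 1 library left out (FDR up to 0.0627 without HFKO library 2) and not with voom on recovered fragments (FDR = 0.0545).

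Dnaja1, an HSP40 co-chaperone that hands clients to HSP70, had means of 38.6 ± 5.46 FPKM in NDWT, 22.6 ± 1.44 in HFWT, 22.3 ± 3.12 in NDKO and 21.2 ± 1.77 in HFKO (interaction log2FC 0.70, SE 0.145, FDR = 0.0299). It fell in WT (diet log2FC −0.76) under all 3 scalings and measured −0.06 in null-labelled mice, where it passed only with median of ratios scaling (−0.60), and it passed in 13 of 20 fits with 1 library left out (FDR up to 0.0612 without NDKO library 1). The list of 29 tested heat shock and ER chaperones held these 3 interaction DEGs and 18 members (62.1%, beside 15.1% of all tested genes) at an unadjusted p under 0.05, all positive. It had 29 of 29 positive values, beside 6580 of 14524 over all tested genes. Its median interaction was 0.69, against −0.03 over all tested genes, and 0.60 after quantile normalization. Its median genotype log2FC was −0.877 on the control diet and −0.212 on CDAHFD. The list was chosen with earlier results of these data known. Its 29 values come from the same 20 libraries and are not independent of one another, so their count is a description. Named after their values were seen, Hsph1, an HSP110 nucleotide exchange factor, measured 19.96 ± 3.81 FPKM in NDWT, 6.21 ± 2.18 in HFWT, 8.28 ± 2.602 in NDKO and 4.805 ± 0.933 in HFKO (interaction log2FC 1.00, SE 0.353, FDR = 0.182), and Pdia6, an ER disulfide isomerase, 62.6 ± 13.9 FPKM in NDWT, 61.9 ± 13.8 in HFWT, 32.4 ± 9.54 in NDKO and 52.7 ± 5.204 in HFKO (interaction log2FC 0.76, SE 0.2604, FDR = 0.165). Sel1l, part of the machinery that removes misfolded ER proteins, had an interaction log2FC of 0.82 (FDR = 0.0872), and Hspa5, the main HSP70 of the ER, one of 0.69 (FDR = 0.348), neither past the FDR. Of the 24 members with a listed promoter stretch, 7 held the heat shock element (Dnaja1, Hspa1a, Hspa1b, Hspb1, Hspd1, Hspe1 and Hsph1) and 7 the ER stress response element (Calr, Creld2, Dnajc3, Hsp90b1, Hspa5, Pdia6 and Syvn1). Counted by stretch and not by gene, 12.8% of all listed stretches held the heat shock element and 0.113% the ER stress response element. Chaperones are known to be read through these elements, so the shares in this list follow in part from its choice. No interaction DEG with a listed stretch held the ER stress response element.

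Cirbp (chromosome 10, 80165985 to 80172786, plus strand), the cold-inducible RNA-binding protein, measured 5.07, 5.08, 5.74, 6.72 and 6.85 FPKM in NDWT, 17.0, 17.7, 18.3, 20.8 and 20.9 in HFWT, 11.03, 11.5, 12.7, 13.3 and 15.6 in NDKO and 14.1, 17.2, 19.3, 20.4 and 21.5 in HFKO. The NDWT libraries lay below all others, NDKO lay above NDWT without overlap, and the CDAHFD groups overlapped. Cirbp had a diet log2FC of 1.67 in WT (FDR = 3.64e-10) and 0.52 in null-labelled mice (FDR = 7.41e-04), with an interaction log2FC of −1.16 (SE 0.1699, FDR = 0.00575). Hnrnpd, which controls mRNA decay through AU-rich elements, had a diet log2FC of 0.92 in WT and 0.28 in null-labelled mice and an interaction of −0.64 (FDR = 0.0258), and its diet response passed in neither genotype under the other scalings. Neat1, the RNA scaffold of paraspeckles, had means of 12.6 ± 2.38 FPKM in NDWT, 55.4 ± 9.37 in HFWT, 27.4 ± 10.7 in NDKO and 39.9 ± 4.71 in HFKO, an interaction of −1.49 (FDR = 0.0302), and rose in WT under all 3 scalings and in null-labelled mice only as deposited.

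**Figure D3:**
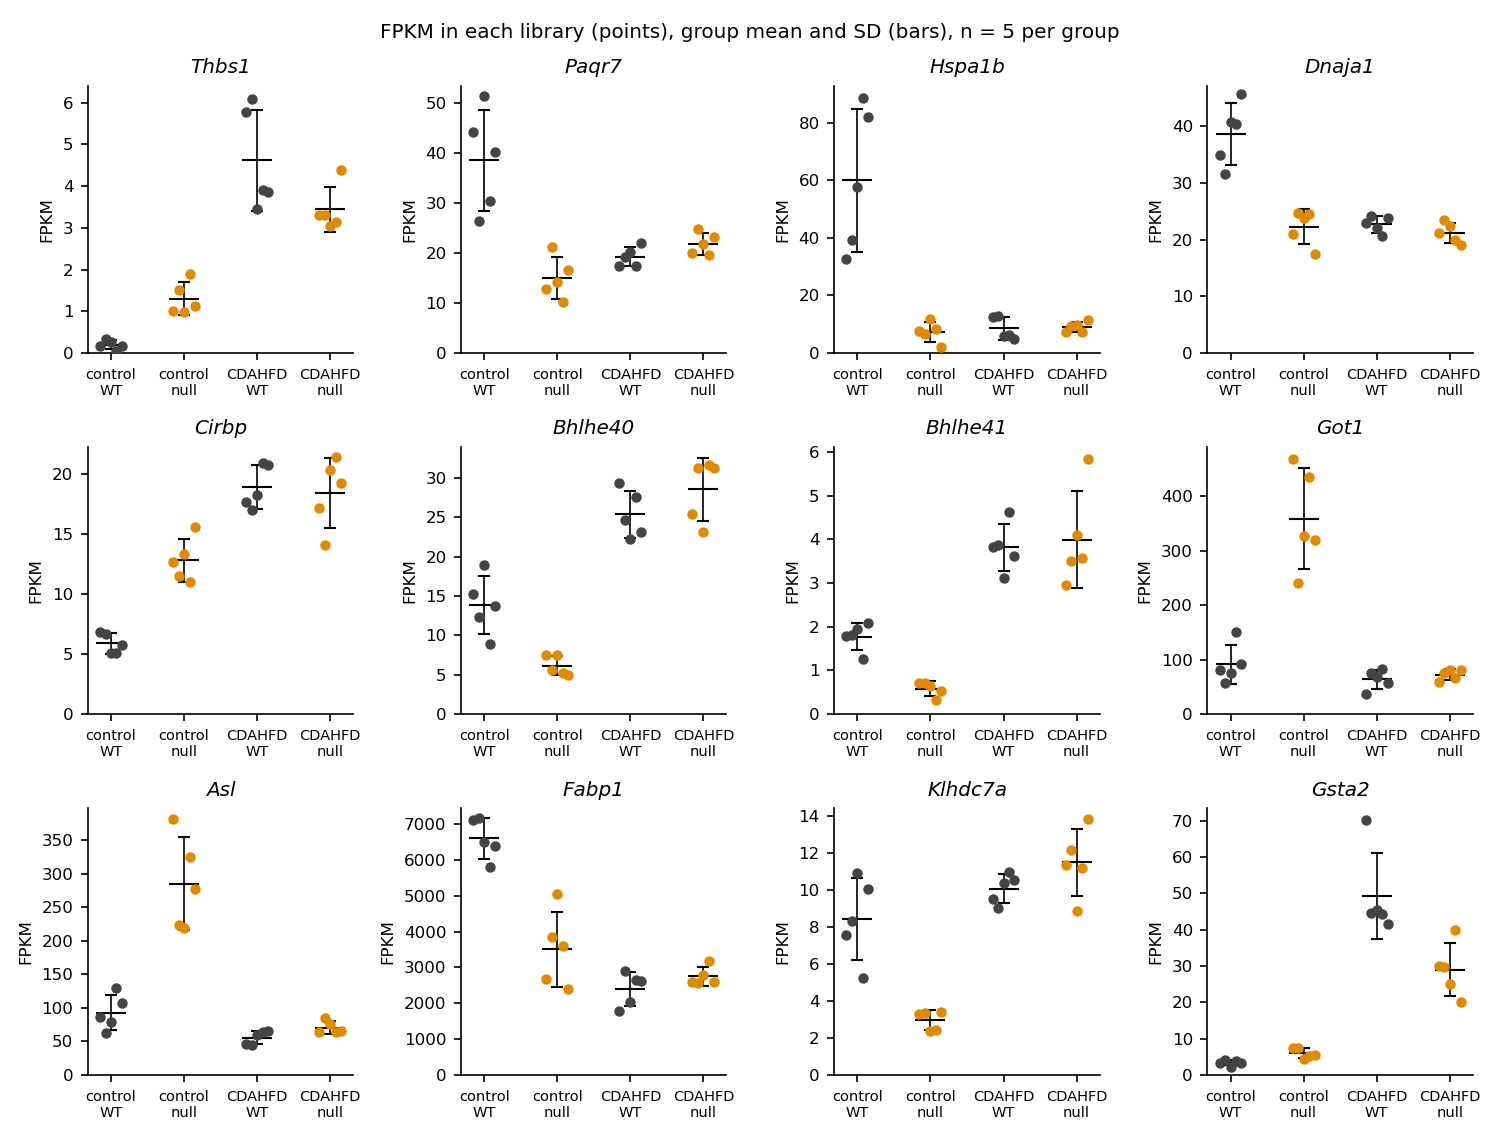
Each of 12 panels gives the FPKM of 1 gene on a linear axis from 0, a point for each of the 20 libraries by group, with bars at the group mean and SD (n = 5). In Hspa1b the NDWT libraries (32.8 to 88.4 FPKM) stand above the other 3 groups, and in Thbs1 the NDWT libraries (0.058 to 0.326 FPKM) stand below them.

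A pair of transcriptional repressors of the circadian clock rose in null-labelled mice under all 3 scalings, and in WT mice passed only as deposited. Bhlhe40 (chromosome 6, 108660629 to 108666925, plus strand) and Bhlhe41 (chromosome 6, 145858243 to 145865558, minus strand) encode DEC1 and DEC2. Bhlhe40 measured 8.905, 12.3, 13.7, 15.3 and 18.9 FPKM in NDWT, 22.3, 23.1, 24.7, 27.5 and 29.4 in HFWT, 5.02, 5.16, 5.61, 7.44 and 7.49 in NDKO and 23.1, 25.4, 31.2, 31.3 and 31.7 in HFKO. Every NDKO library lay below every NDWT library, and the CDAHFD groups overlapped above both. Bhlhe40 had a diet log2FC of 0.91 in WT (FDR = 6.05e-05) and 2.21 in null-labelled mice (FDR = 7.62e-10), with an interaction log2FC of 1.30 (SE 0.233, FDR = 0.0146). Bhlhe41 measured 1.26, 1.78, 1.799, 1.94 and 2.09 FPKM in NDWT, 3.13, 3.63, 3.83, 3.88 and 4.63 in HFWT, 0.32, 0.537, 0.649, 0.703 and 0.712 in NDKO and 2.96, 3.502, 3.58, 4.09 and 5.84 in HFKO. Its order of groups was the same, with the lowest values in NDKO. Bhlhe41 had a diet log2FC of 1.07 in WT (FDR = 4.62e-05) and 2.58 in null-labelled mice (FDR = 6.42e-10), with an interaction log2FC of 1.51 (SE 0.269, FDR = 0.0146). Of 23 tested clock genes and clock outputs, these 2 were interaction DEGs and 12 (52.2%, beside 15.1% of all tested genes) had an unadjusted p under 0.05, 8 positive (Bhlhe40, Bhlhe41, Hlf, Wee1, Nr1d2, Dbp, Per3 and Usp2) and 4 negative (Arntl, Cry1, Tsc22d3 and Npas2), named after their values were seen. The list median was 0.445. Arntl, the activator that drives the clock with CLOCK, measured 2.68 ± 0.274 FPKM in NDWT, 4.31 ± 2.04 in HFWT, 3.896 ± 0.693 in NDKO and 2.798 ± 1.02 in HFKO (interaction log2FC −1.07, SE 0.366, FDR = 0.166), and Dbp, an output activated by it, 17.96 ± 5.74 FPKM in NDWT, 22.2 ± 12.6 in HFWT, 11.1 ± 1.52 in NDKO and 31.7 ± 12.5 in HFKO (interaction log2FC 1.25, SE 0.489, FDR = 0.223), both short of the FDR. Of the 18 members with a listed promoter stretch, 4 held the E-box (Bhlhe41, Cry1, Per1 and Tef). Counted by stretch and not by gene, 6.02% of all listed stretches held it. Clock genes are known to be read through E-boxes, so the share in this list follows in part from its choice.

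Among enzymes of amino acid breakdown and the urea cycle, Asl, Agxt and Oat fell further in null-labelled than in WT mice, although Oat did not pass in WT with quantile normalization, and Got1 fell in null-labelled mice and passed in WT only with median of ratios scaling. Got1 (chromosome 19, 43499752 to 43524605, minus strand), the cytosolic aspartate aminotransferase, measured 57.6, 75.9, 81.2, 91.8 and 152 FPKM in NDWT, 36.8, 56.3, 67.7, 74.5 and 81.9 in HFWT, 241, 320.3, 327, 436 and 469 in NDKO and 59.3, 66.5, 75.9, 80.2 and 80.5 in HFKO. The NDKO libraries lay above all 15 others. Got1 had a diet log2FC of −0.51 in WT (FDR = 0.0608) and −2.27 in null-labelled mice (FDR = 6.63e-08), with an interaction log2FC of −1.77 (SE 0.334, FDR = 0.0183). Asl, argininosuccinate lyase of the urea cycle, had means of 93.05 ± 26.2 FPKM in NDWT, 55.9 ± 9.898 in HFWT, 286 ± 68.9 in NDKO and 70.8 ± 9.58 in HFKO (interaction log2FC −1.28, SE 0.259, FDR = 0.0257). Agxt, the transaminase that clears glyoxylate, had means of 197 ± 29.98 FPKM in NDWT, 100.5 ± 14.4 in HFWT, 470.3 ± 118 in NDKO and 123 ± 13.6 in HFKO (interaction log2FC −0.93, SE 0.206, FDR = 0.0383). The diet log2FC of Asl was −0.71 in WT and −1.99 in null-labelled mice, and that of Agxt −0.97 and −1.90. Asl passed in 15 of 20 fits with 1 library left out (FDR up to 0.05504 without HFKO library 1) and Agxt in 7 (up to 0.0765 without NDWT library 3).

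Oat, ornithine aminotransferase, differed from these in where the genotypes were apart. Its means were 574 ± 120.5 FPKM in NDWT, 349.8 ± 44.1 in HFWT, 636 ± 54.8 in NDKO and 187 ± 49.2 in HFKO, with a genotype log2FC of 0.17 (FDR = 0.538) on the control diet and −0.93 (FDR = 0.00476) on CDAHFD (interaction log2FC −1.10, SE 0.223, FDR = 0.0257; past the threshold in 16 of 20 fits with 1 library left out, FDR up to 0.0532 without HFKO library 1). Lhpp, a phosphatase whose gene lies next to Oat on chromosome 7, had means of 49.2 ± 6.67 FPKM in NDWT, 33.3 ± 1.89 in HFWT, 53.4 ± 3.83 in NDKO and 21.2 ± 3.65 in HFKO and a genotype log2FC of 0.13 (FDR = 0.488) on the control diet and −0.67 (FDR = 0.00301) on CDAHFD (interaction log2FC −0.79, SE 0.151, FDR = 0.0191). Of 50 tested genes of amino acid catabolism, 3 were interaction DEGs, all negative (Got1, Oat and Agxt), and 23 (46%, beside 15.1% of all tested genes) had an unadjusted p under 0.05, 21 of them negative. The list median was −0.17 (−0.09 with array quality weights, −0.11 without NDWT library 2 and without HFKO library 5). Of 8 urea cycle genes, Asl was the 1 interaction DEG, and 4 (50%) had an unadjusted p under 0.05, all negative, with a median of −0.40 that was −0.21 after quantile normalization. The 26 tested pericentral genes held Oat and Lhpp, and the 23 periportal genes Asl.

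Fabp1, Gpd1 and Abhd6 fell on CDAHFD in WT livers under all 3 scalings, and in null-labelled livers they passed only with median of ratios scaling. They are given together for their known roles in lipid metabolism, and not from a list. Fabp1, the main fatty acid binding protein of the hepatocyte, had means of 6597 ± 564 FPKM in NDWT, 2398 ± 462 in HFWT, 3513 ± 1046 in NDKO and 2747 ± 264 in HFKO. It fell in WT (−1.48) and measured −0.31 in null-labelled mice (interaction log2FC 1.17, SE 0.236, FDR = 0.0257), and passed in 18 of 20 fits with 1 library left out (FDR up to 0.0533 without HFKO library 4). Gpd1, which makes glycerol 3-phosphate in the cytosol, had means of 304 ± 30.9 FPKM in NDWT, 133 ± 14.8 in HFWT, 214 ± 37.0 in NDKO and 160.0 ± 11.7 in HFKO (interaction log2FC 0.79, SE 0.148, FDR = 0.0183). Dbi, the acyl-CoA binding protein, had means of 254 ± 15.3 FPKM in NDWT, 182 ± 18.7 in HFWT, 182 ± 22.6 in NDKO and 205 ± 28.5 in HFKO (interaction log2FC 0.66, SE 0.139, FDR = 0.0299), and Abhd6, a monoacylglycerol lipase, 26.4 ± 3.69 FPKM in NDWT, 13.5 ± 1.79 in HFWT, 15.2 ± 3.77 in NDKO and 14.02 ± 0.825 in HFKO (interaction log2FC 0.87, SE 0.189, FDR = 0.0333). Kdsr, which makes dihydrosphingosine, had an interaction of 0.81 (FDR = 0.0208), the lipid transporter Abca3 one of 0.76 (FDR = 0.0299), and Erlin1, an ER protein of cholesterol-rich membrane, one of 0.66 (FDR = 0.0303).

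Fabp1 was the 1 interaction DEG among 49 tested PPARα target genes, whose median interaction was 0.39. Of the 49, 26 (53.1%) had an unadjusted p under 0.05, 23 positive. Over all tested genes the share was 15.1%, with 6.97% positive. The median genotype log2FC of the list was −0.227 on the control diet and 0.165 on CDAHFD. Vnn1, a pantetheinase named after its values were seen, measured 118 ± 25.1 FPKM in NDWT, 42.5 ± 10.2 in HFWT, 49.2 ± 21.2 in NDKO and 41.6 ± 6.97 in HFKO (interaction log2FC 1.34, SE 0.346, FDR = 0.0666). Acsl5, an acyl-CoA synthetase, passed the FDR with a fold under the threshold (interaction log2FC 0.46, SE 0.0823, FDR = 0.0146) and was also named after its values were seen. With limma, 0 of 25 genes of mitochondrial β-oxidation were interaction DEGs (11 at an unadjusted p under 0.05, all positive; 0 with voom), with a list median of 0.28. Likewise 0 of 26 lipogenic genes passed (10 unadjusted, 9 positive; 0 with voom), with a median of 0.28, and 0 of 39 lipoprotein and lipid droplet genes (11 unadjusted, 9 positive; 0 with voom), with a median of 0.13 (0.07 with array quality weights, 0.08 without NDKO library 5).

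The list of NRF2 targets and glutathione transferases and that of acute phase proteins each held 1 interaction DEG. Gsta2 (chromosome 9, 78331018 to 78355788, minus strand), an alpha class glutathione transferase, measured 2.34, 3.28, 3.32, 3.81 and 4.07 FPKM in NDWT, 41.7, 44.3, 44.7, 45.6 and 70.1 in HFWT, 4.45, 5.32, 5.59, 7.37 and 7.53 in NDKO and 20.2, 25.1, 29.7, 30.02 and 39.9 in HFKO. The 2 genotypes did not overlap on either diet, with NDKO above NDWT and HFKO below HFWT, and HFWT library 1 stood apart at 70.1 FPKM. Gsta2 had a diet log2FC of 3.83 in WT (FDR = 2.99e-12) and 2.23 in null-labelled mice (FDR = 4.43e-09), with an interaction log2FC of −1.59 (SE 0.268, FDR = 0.0104). Its transcripts share 44.7% of their 31-base words with Gsta1, so reads of the 2 may be mixed. It was the 1 interaction DEG of 39 tested NRF2 targets and glutathione transferases, 4 of which had an unadjusted p under 0.05.

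Mt2, a zinc-binding metallothionein that is also an acute phase gene, had means of 14.5 ± 6.02 FPKM in NDWT, 67.5 ± 31.5 in HFWT, 148 ± 120.5 in NDKO and 68.3 ± 14.99 in HFKO, with values from 39.7 to 327 FPKM within NDKO. It rose in WT (2.24) and measured −0.69 in null-labelled mice, or −1.23 and past the test with median of ratios scaling (interaction log2FC −2.93, SE 0.6895, FDR = 0.0496). Mt2 passed in 4 of 20 fits with 1 library left out (FDR up to 0.0875 without NDKO library 1). It was the 1 interaction DEG of 24 tested metallothionein, iron and haem genes, and of 29 acute phase genes. Slc25a37 (chromosome 14, 69241848 to 69285112, minus strand), mitoferrin-1, which brings iron into mitochondria, measured 3.99, 4.64, 4.99, 5.15 and 5.51 FPKM in NDWT, 7.78, 8.28, 8.29, 8.63 and 8.82 in HFWT, 2.78, 2.92, 2.97, 3.04 and 3.17 in NDKO and 7.303, 7.42, 8.05, 8.101 and 8.12 in HFKO. Its NDKO libraries lay below all NDWT libraries and its CDAHFD libraries overlapped. Slc25a37 had a diet log2FC of 0.78 in WT (FDR = 1.90e-08) and 1.36 in null-labelled mice (FDR = 1.43e-11), with an interaction log2FC of 0.58 (SE 0.105, FDR = 0.0146), just past the fold threshold, and it passed in 10 of 20 fits with 1 library left out.

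Of the remaining lead genes, 3 encode membrane receptors. Paqr7 (chromosome 4, 134496697 to 134510235, plus strand), a membrane progestin receptor, measured 26.5, 30.3, 40.2, 44.1 and 51.3 FPKM in NDWT, 17.4, 17.5, 19.2, 20.2 and 21.9 in HFWT, 10.1, 12.8, 14.2, 16.5 and 21.2 in NDKO and 19.6, 19.97, 21.7, 23.1 and 24.8 in HFKO. NDWT stood above every other group without overlap. Paqr7 had a diet log2FC of −0.96 in WT (FDR = 6.12e-05) and 0.58 in null-labelled mice (FDR = 0.00583), with an interaction log2FC of 1.54 (SE 0.247, FDR = 0.00925). Epha1 (chromosome 6, 42358487 to 42373268, minus strand), an ephrin receptor tyrosine kinase, measured 9.22, 10.1, 10.3, 11.7 and 12.4 FPKM in NDWT, 15.3, 15.5, 16.9, 17.4 and 18.04 in HFWT, 6.695, 6.84, 7.09, 7.68 and 8.301 in NDKO and 17.1, 18.3, 18.8, 18.8 and 19.5 in HFKO. NDKO was lowest without overlap, and the CDAHFD groups overlapped above NDWT. Epha1 had a diet log2FC of 0.63 in WT (FDR = 8.09e-07) and 1.33 in null-labelled mice (FDR = 4.69e-11), with an interaction log2FC of 0.70 (SE 0.113, FDR = 0.00925). Plxna2 (chromosome 1, 194619829 to 194816869, plus strand), a plexin that receives semaphorins, measured 1.19, 1.41, 1.82, 2.01 and 2.47 FPKM in NDWT, 1.82, 2.18, 2.18, 2.21 and 2.21 in HFWT, 0.889, 0.949, 1.003, 1.07 and 1.399 in NDKO and 2.51, 3.16, 3.304, 3.31 and 3.72 in HFKO. Its HFKO libraries lay above all 15 others, the control diet groups overlapped, and HFWT library 4 stood apart from its group at 1.82 FPKM. Plxna2 had a diet log2FC of 0.28 in WT (FDR = 0.123) and 1.51 in null-labelled mice (FDR = 7.59e-08), with an interaction log2FC of 1.24 (SE 0.224, FDR = 0.0147).

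Among the other positive leads, Klhdc7a (chromosome 4, 139962173 to 139968026, minus strand), a kelch domain protein, measured 5.24, 7.54, 8.31, 10.03 and 10.9 FPKM in NDWT, 9.002, 9.51, 10.4, 10.5 and 10.9 in HFWT, 2.35, 2.42, 3.31, 3.34 and 3.405 in NDKO and 8.87, 11.2, 11.3, 12.1 and 13.8 in HFKO. Every NDKO library lay below every other library. Klhdc7a had a diet log2FC of 0.30 in WT (FDR = 0.109) and 1.92 in null-labelled mice (FDR = 4.74e-09), with an interaction log2FC of 1.62 (SE 0.231, FDR = 0.00551). Ak4 (chromosome 4, 101419277 to 101466995, plus strand), an adenylate kinase of the mitochondrial matrix, measured 13.02, 17.1, 17.2, 17.3 and 18.2 FPKM in NDWT, 6.62, 8.46, 9.096, 9.39 and 13.5 in HFWT, 7.82, 9.83, 10.04, 10.2 and 10.4 in NDKO and 11.6, 12.4, 12.6, 12.8 and 18.1 in HFKO. NDWT lay above NDKO without overlap and HFKO overlapped HFWT, and the replicate numbered 4 stood apart within its group in NDWT at 13.02, in NDKO at 7.82 and in HFKO at 18.1 FPKM. Ak4 had a diet log2FC of −0.84 in WT (FDR = 6.15e-05) and 0.46 in null-labelled mice (FDR = 0.0103), with an interaction log2FC of 1.30 (SE 0.215, FDR = 0.0101). Slc23a2 (chromosome 2, 132052496 to 132145108, minus strand), a sodium-coupled vitamin C transporter, measured 7.73, 7.84, 8.23, 8.25 and 8.699 FPKM in NDWT, 6.81, 6.87, 6.91, 7.28 and 7.79 in HFWT, 3.08, 3.997, 4.54, 4.89 and 5.16 in NDKO and 5.92, 6.73, 6.74, 8.03 and 8.24 in HFKO. NDKO lay below the other 3 groups, which overlapped. Slc23a2 had a diet log2FC of −0.19 in WT (FDR = 0.134) and 0.72 in null-labelled mice (FDR = 1.27e-05), with an interaction log2FC of 0.91 (SE 0.159, FDR = 0.0146). Hs3st6 (chromosome 17, 24753003 to 24758683, plus strand), which sulfates heparan sulfate, measured 1.52, 1.67, 1.82, 1.903 and 2.35 FPKM in NDWT, 0.427, 0.781, 1.001, 1.38 and 1.42 in HFWT, 0.73, 1.18, 1.404, 1.48 and 1.51 in NDKO and 1.99, 2.24, 2.28, 2.75 and 2.87 in HFKO. The genotypes did not overlap on either diet and changed order, with NDKO below NDWT and HFKO above HFWT. Hs3st6 had a diet log2FC of −0.91 in WT (FDR = 0.00212) and 0.92 in null-labelled mice (FDR = 0.00202), with an interaction log2FC of 1.83 (SE 0.3398, FDR = 0.0169).

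Among the other negative leads, Crcp (chromosome 5, 130029290 to 130060789, plus strand), a component of the CGRP receptor and of RNA polymerase III, measured 9.75, 9.86, 11.3, 11.9 and 13.1 FPKM in NDWT, 12.7, 12.8, 14.6, 14.7 and 14.7 in HFWT, 16.1, 20.5, 21.6, 25.5 and 27.4 in NDKO and 12.2, 13.1, 13.6, 14.7 and 15.2 in HFKO. NDKO stood above the other 3 groups. Crcp had a diet log2FC of 0.31 in WT (FDR = 0.0214) and −0.67 in null-labelled mice (FDR = 4.55e-05), with an interaction log2FC of −0.98 (SE 0.166, FDR = 0.0104). Rnmtl1 (chromosome 11, 76243715 to 76250619, plus strand), a methyltransferase of mitochondrial ribosomal RNA, measured 2.06, 2.26, 2.29, 2.54 and 2.69 FPKM in NDWT, 3.26, 3.702, 3.86, 3.86 and 3.98 in HFWT, 2.99, 3.002, 3.298, 3.79 and 3.98 in NDKO and 2.82, 3.02, 3.11, 3.21 and 3.22 in HFKO. The genotypes did not overlap on either diet and changed order. Rnmtl1 had a diet log2FC of 0.64 in WT (FDR = 4.01e-06) and −0.14 in null-labelled mice (FDR = 0.184), with an interaction log2FC of −0.77 (SE 0.129, FDR = 0.0104). Rnd1 (chromosome 15, 98663421 to 98677461, minus strand), a small GTPase that loosens the actin cytoskeleton, measured 2.53, 2.95, 3.21, 3.24 and 4.18 FPKM in NDWT, 4.08, 4.52, 4.97, 5.09 and 6.803 in HFWT, 4.46, 5.01, 5.699, 5.95 and 6.85 in NDKO and 3.21, 3.496, 3.99, 4.05 and 4.56 in HFKO. The control diet groups did not overlap, and each CDAHFD group overlapped both of them. Rnd1 had a diet log2FC of 0.64 in WT (FDR = 5.84e-04) and −0.52 in null-labelled mice (FDR = 0.00348), with an interaction log2FC of −1.16 (SE 0.205, FDR = 0.0146).

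The other 3 negative leads are given here without a role. 2410131K14Rik (chromosome 5, 118245227 to 118266093, plus strand) measured 1.103, 1.26, 1.28, 1.31 and 1.43 FPKM in NDWT, 2.05, 2.27, 2.34, 2.36 and 2.65 in HFWT, 1.66, 2.01, 2.13, 2.36 and 2.78 in NDKO and 1.32, 1.604, 1.69, 1.76 and 2.202 in HFKO. Its NDWT libraries lay below all NDKO libraries. It had a diet log2FC of 0.82 in WT (FDR = 1.28e-05) and −0.33 in null-labelled mice (FDR = 0.02901), with an interaction log2FC of −1.15 (SE 0.184, FDR = 0.00925). The lincRNA 9430037G07Rik (chromosome 9, 88595325 to 88599516, minus strand) measured 1.08, 1.42, 1.76, 2.04 and 2.27 FPKM in NDWT, 0.445, 0.694, 0.784, 0.785 and 1.18 in HFWT, 5.02, 5.12, 5.71, 7.05 and 8.59 in NDKO and 0.472, 0.524, 0.565, 0.764 and 1.11 in HFKO. NDKO stood above the 3 other groups. The lincRNA had a diet log2FC of −1.06 in WT (FDR = 6.38e-04) and −3.05 in null-labelled mice (FDR = 1.80e-09), with an interaction log2FC of −1.99 (SE 0.342, FDR = 0.0121), and it shares 40.8% of its 31-base words with 9330159M07Rik. E030018B13Rik (chromosome 7, 63916857 to 63920539, plus strand) measured 0.212, 0.344, 0.443, 0.59 and 0.889 FPKM in NDWT, 0.097, 0.165, 0.209, 0.228 and 0.346 in HFWT, 1.42, 1.603, 2.65, 4.63 and 5.12 in NDKO and 0, 0.052, 0.089, 0.126 and 0.219 in HFKO. NDKO stood above the 3 other groups, on 26 to 105 fragments against 0 to 4 in HFKO, so the size of its fold depends on the pseudocount. E030018B13Rik had a diet log2FC of −0.89 in WT (FDR = 0.0456) and −3.94 in null-labelled mice (FDR = 3.20e-08), with an interaction log2FC of −3.05 (SE 0.547, FDR = 0.0146).

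Other interaction DEGs included regulators of transcription and signalling. Klf11, a Kruppel-like factor, had means of 5.57 ± 0.738 FPKM in NDWT, 4.49 ± 0.5704 in HFWT, 2.74 ± 0.888 in NDKO and 4.81 ± 0.833 in HFKO (interaction 1.13, FDR = 0.0301). Thrb, the thyroid hormone receptor β of liver, had means of 5.85 ± 0.976 FPKM in NDWT, 3.56 ± 0.5203 in HFWT, 3.06 ± 0.356 in NDKO and 3.12 ± 0.289 in HFKO (interaction 0.73, FDR = 0.0404). Tle3, a corepressor, had a diet log2FC of 1.19 in WT and 1.97 in null-labelled mice (interaction 0.78, FDR = 0.0354). Kdm6b, which removes repressive methyl marks from histone H3, had an interaction of 0.89 (FDR = 0.0245), the Wnt receptor Fzd5 one of 1.00 (FDR = 0.0389), and Mn1 one of 0.96 (FDR = 0.0177). Mn1 was among the few that passed the genotype test on CDAHFD, with a genotype log2FC of 0.60 (FDR = 0.0243). Regulators with a negative interaction were Lmo4 (interaction −0.82, FDR = 0.0404), the NF-κB inhibitor Tnip2 (interaction −0.67, FDR = 0.0303) and Arrdc4, an arrestin domain protein that answers to glucose (interaction −0.94, FDR = 0.03804).

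Of the macrophage, stellate cell and matrix lists, 1 gene in all was an interaction DEG. Trem2, a receptor of lipid-laden macrophages, had means of 0.183 ± 0.0382 FPKM in NDWT, 19.9 ± 2.67 in HFWT, 0.4 ± 0.142 in NDKO and 14.4 ± 3.67 in HFKO. It rose in both genotypes, with a diet log2FC of 6.15 in WT and 4.87 in null-labelled mice (interaction log2FC −1.28, SE 0.2604, FDR = 0.0258). Genotype did not pass its own test for Trem2 on CDAHFD. Its control diet means lie near the pseudocount of 0.1, so the size of its diet folds and interaction depends on the pseudocount. Trem2 did not pass with voom (FDR = 0.106) and passed in 15 of 20 fits with 1 library left out (FDR up to 0.0569 without HFKO library 1). It was the 1 interaction DEG of 22 tested macrophage markers, whose median interaction was −0.19 (−0.08 without HFKO library 4) and of which 3 had an unadjusted p under 0.05. The summed macrophage markers lay between 363.4 and 471.8 FPKM in NDWT, 2275.8 and 2928.0 in HFWT, 342.7 and 555.8 in NDKO, and 1554.9 and 2976.3 in HFKO, and their part in the Trem2 value was not tested. In whole liver, fewer cells of a type and less RNA per cell cannot be told apart. The 12 tested cholangiocyte and ductular markers, which held 0 interaction DEGs by limma (2 at an unadjusted p under 0.05, both negative; 0 with voom), summed to between 33.5 and 43.6 FPKM in NDWT, 356.5 and 591.1 in HFWT, 29.3 and 39.3 in NDKO, and 246.6 and 441.3 in HFKO. Their median interaction was −0.27, or −0.12 without HFKO library 2, and their part in the value of the next gene was not tested. Emp2, an epithelial membrane protein, rose in both genotypes, with a diet log2FC of 3.52 in WT and 2.67 in null-labelled mice (interaction −0.85, FDR = 0.0492).

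Meg3, an imprinted maternally expressed lincRNA, was apart between genotypes on CDAHFD, with a genotype log2FC of −1.50 (FDR = 0.002504). Its means were 0.0468 ± 0.0129 FPKM in NDWT, 7.34 ± 3.38 in HFWT, 0.0768 ± 0.0246 in NDKO and 2.36 ± 0.532 in HFKO, and its diet log2FC was 5.55 in WT and 3.78 in null-labelled mice (interaction log2FC −1.76, SE 0.335, FDR = 0.0183), with voom giving an FDR of 0.161. Both control diet means of Meg3 lie below the pseudocount of 0.1, so the size of its diet folds and interaction depends on the pseudocount. With limma, 0 of 35 collagen and fibrotic matrix genes were interaction DEGs (5 at an unadjusted p under 0.05, 2 positive and 3 negative; 1 with voom). Their median interaction was −0.13, from −0.29 without HFWT library 4 to −0.05 without HFWT library 1, beside median diet log2FCs of 2.99 in WT and 2.73 in null-labelled mice. Of 17 stellate cell and myofibroblast markers 0 passed (3 unadjusted; 0 with voom), and their summed level lay between 314.4 and 473.2 FPKM in HFWT and between 302.7 and 395.0 in HFKO. Among 18 T and NK cell markers 0 passed (0 unadjusted; 0 with voom), with a median of −0.41, from −0.64 without NDWT library 2 to −0.23 without NDWT library 4, and −0.75 with array quality weights.

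In 3 entries there were too few fragments for a fold to be read. Snord49b is a small nucleolar RNA counted at very low depth. Gm11672 had at most 3 fragments in every NDWT library and Gm11223 in every NDKO library, and fewer than 20 in all others, so their fitted values depend on the pseudocount. Gm11223 also shares 92.6% of its 31-base words with Stmn1. The pseudogene Bhmt-ps1 (interaction −1.35, FDR = 0.0375) shares 75.1% with Bhmt, whose antisense RNA Gm15622 was also an interaction DEG (interaction −3.30, FDR = 0.0473). The lincRNA Gm15611 had means of 67.4 ± 17.6 FPKM in NDWT, 10.3 ± 6.38 in HFWT, 26.6 ± 14.04 in NDKO and 23.5 ± 3.84 in HFKO, an interaction of 2.94 (FDR = 0.0288), and did not overlap between genotypes on either diet. In all, 13 of the 94 genes shared at least 5% of their 31-base words with another gene, and 29 overlapped an exon of another gene on the opposite strand. The kit marked strand, and whether the counting used it is not given in the sources used here.

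Of 27 tested genes of TSP-1, its receptors and TGF-β signalling, 2 were interaction DEGs, 1 in each direction, and 7 (25.9%, beside 15.1% of all tested genes) had an unadjusted p under 0.05. Thbs1 lies on chromosome 2, and 7 of the 94 interaction DEGs (7.45%) started within 30 Mb of it, Thbs1 included, beside 350 of all tested genes (2.41%). The 7 included Slc23a2, Stk35 (interaction 0.70, FDR = 0.0297), 4930402H24Rik (interaction 0.66, FDR = 0.0301), Ldlrad3 (interaction 0.72, FDR = 0.0496) and the pseudogene Gm13880 (interaction −1.34, FDR = 0.03403). Of the 7, 4 were positive and 3 negative. Sequence carried along with the targeted allele cannot be told apart from the allele itself in this design.

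Across 44 gene lists, 1019 distinct genes were tested and 16 were interaction DEGs, which fell into 12 lists, leaving 32 lists with 0. Over all tested genes 15.1% had an unadjusted p under 0.05, the share to set beside the unadjusted counts of each list. List medians ran from −0.505 to 0.685. The lowest was that of 43 male-biased and growth hormone dependent liver genes, with 0 interaction DEGs by limma, 10 at an unadjusted p under 0.05 (8 negative) and 0 with voom, and its median ran from −0.68 to −0.21 with 1 library left out, the latter without HFKO library 4, and was −0.18 with a pseudocount of 1. Among 55 cell cycle and DNA replication genes 0 passed (14 unadjusted, 11 positive; 1 with voom), with a median of 0.31 that ran from 0.14 to 0.40 with 1 library left out, the former without HFKO library 5, and was 0.09 with a pseudocount of 1. Of 38 cytochrome P450 genes of families 1 to 3, 0 passed (14 unadjusted, 7 in each direction; 0 with voom). Of the 39 interferon-stimulated genes 0 passed (2 unadjusted; 0 with voom), and of the 39 genes of toll-like receptor signalling 0 (8 unadjusted; 0 with voom).

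**Figure D4:**
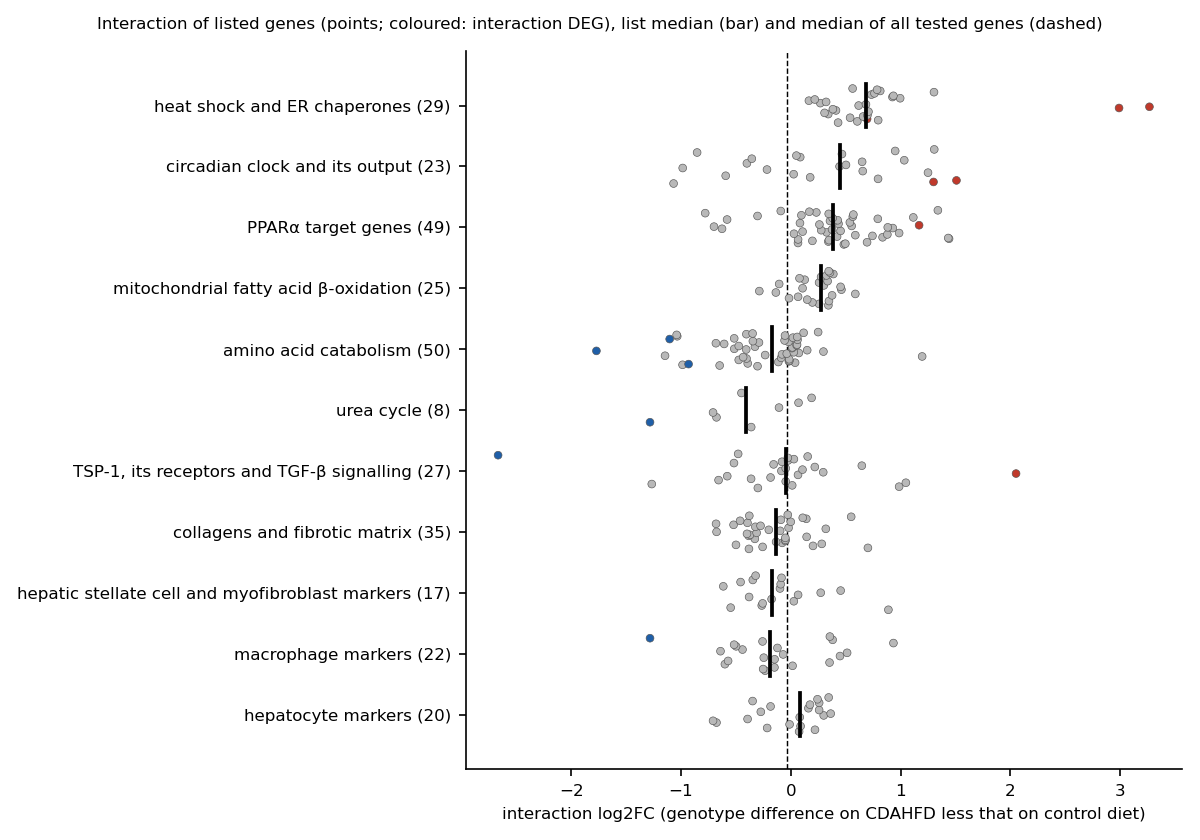
The horizontal axis gives the interaction log2FC of each tested member of 11 gene lists, with list sizes in parentheses, coloured where the member is an interaction DEG, the list median as a bar and the median of all tested genes as a dashed line. All 29 chaperones lie to the right of 0, while the matrix, stellate cell and macrophage lists lie on both sides of it.

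The threshold divided genes of nearly equal evidence. Just inside lay Csrp2 (interaction −0.83, FDR = 0.0499), Mt2 and Ldlrad3, and 19 of the 94 had an FDR between 0.04 and 0.05. Just outside lay Cdkn1a, the p53 target that halts the cell cycle, with an interaction of −2.06 and an FDR of 0.05004, and 47 genes had an FDR between 0.05 and 0.06 with a fold past the threshold. A further 30 passed the FDR with a smaller fold. When each library was left out in turn, 31 of the 94 genes passed in all 20 fits, 47 in at least 15 and 29 in fewer than 10. Of the genes named above, those 29 held Agxt, Mt2, Neat1, Abhd6, Klf11, Tle3, Fzd5, Thrb, Arrdc4, Lmo4, Emp2, Ldlrad3, Csrp2, Gm15622, Raet1e and Snord49b. Without NDKO library 4 the count of interaction DEGs was 36, the lowest, and without NDKO library 2 it was 184, the highest. Of the 24 lead genes, 23 passed in all 20 fits, the exception being Slc25a37. The leads were picked for the lowest FDR in the same libraries, so this is partly fixed by their choice.

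**Figure D5:**
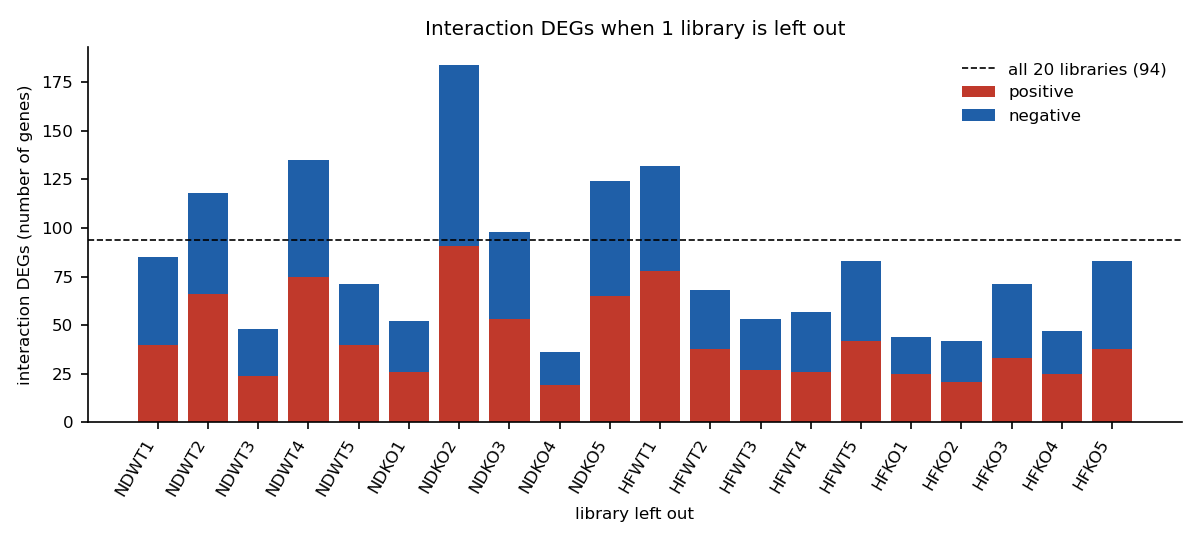
Each bar gives the number of interaction DEGs, positive in red and negative in blue, when the library named on the horizontal axis is left out, and the dashed line the number with all 20 libraries (94). The lowest bar, 36, is that without NDKO library 4 and the highest, 184, that without NDKO library 2, with both directions present in every bar.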

How the data were processed

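Poly(A) RNA from 20 livers, 5 for each of the 4 groups, was sequenced as paired ends with a directional kit. The authors deposited FPKM for each gene and library. The submitters' processing notes name STAR 2.5.2 and featureCounts of Subread 1.5.1, and they name the build GRCh38, although the coordinates in the table are those of mouse GRCm38. FPKM removes gene length and depth but not a shift in composition, so other scalings were tried. Low FPKM values were whole multiples of 1 fragment in every library (100.0% of the values checked, at least 99.85% of those above 0, to within 0.01 fragment beyond the rounding of the FPKM), which gave fragments for each gene and library, between 15641545 and 23276322 in total. These totals set the precision of low genes.

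The tested genes, those that exceeded an FPKM of 0.5 in 5 or more libraries, were analysed as log2(FPKM + 0.1) with limma 3.58.1 in R 4.3.3, with 1 mean for each group, a trended prior and a spread shared by all 20 libraries. All tests were two-sided, with Benjamini-Hochberg FDR within each comparison over all 14524 genes, and calls needed an FDR under 0.05 and an absolute log2FC above 0.58. Fold changes are on the log2(FPKM + 0.1) scale, which understates changes of low genes. The test was tried on simulated data. Interaction, diet and genotype contrasts share libraries, so response classes are descriptions. Values in every library were given for the 12 interaction DEGs of each direction with the lowest FDR, in ascending order, except for a few that are not reported here, and other interaction DEGs by group mean ± SD (n = 5). Other genes were named as members of fixed lists or as chosen after their values were seen. The comparison, its members and the gene lists were chosen with earlier results of these data known. Alternatives were the pseudocount, filter, scaling, prior, library weights, fold threshold, voom on recovered fragments, a replicate block and leaving out each library. Shared 31-base words and exon overlaps used GENCODE M21, in which 93 of the 94 genes were found, and promoter stretches were RefSeq GRCm38.p6.

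The labels give no pairing. Within-group deviations of same-numbered libraries correlated between −0.133 and 0.081 over 30 pairs (median 0.02), so numbers were not taken to pair mice. No batch is given in the labels. All 40 within-group pairs of libraries differed by more than sampling noise (chi-square per degree of freedom at least 13.03), so each counted once.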

Additional observations from a re-analysis of the deposited data

Results flagged for a closer look

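Each interaction of the 21 lead genes given here was a tested difference between genotypes in the response to CDAHFD, and 94 genes passed that test with limma. The positive interaction log2FCs were 1.62 for Klhdc7a, 1.54 for Paqr7, 0.70 for Epha1, 3.27 for Hspa1b, 1.30 for Ak4, 0.91 for Slc23a2, 1.51 for Bhlhe41, 1.30 for Bhlhe40, 0.58 for Slc25a37, 1.24 for Plxna2 and 1.83 for Hs3st6. The negative ones were −2.67 for Thbs1, −1.16 for Cirbp, −1.15 for 2410131K14Rik, −0.77 for Rnmtl1, −1.59 for Gsta2, −0.98 for Crcp, −1.99 for 9430037G07Rik, −1.16 for Rnd1, −3.05 for E030018B13Rik and −1.77 for Got1.

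Of 84 groups of 5 libraries examined for these 21 genes, 6 held a library far from the other 4 by Dixon's ratio, where chance alone gives about 1 in 20 groups. These were Thbs1 in HFKO library 5 (4.40 FPKM), Ak4 in NDWT library 4 (13.02), NDKO library 4 (7.82) and HFKO library 4 (18.1), Gsta2 in HFWT library 1 (70.1) and Plxna2 in HFWT library 4 (1.82). Ak4 was below its group in the first 2 of these and above it in HFKO. All 4 genes remained past the threshold without any 1 of the 20 libraries, which is partly fixed by their choice as leads.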

How the results depend on the processing

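Over 3097 refits of the single interaction DEGs, none changed sign and 782 no longer passed the threshold. The 94 interaction DEGs became 54 with no filter on low values, 216 with array quality weights, 131 with voom on recovered fragments (74 positive, 57 negative; 87 of the 94 among them), 139 with median of ratios scaling (82 and 57), 109 with quantile normalization (66 and 43), 89 and 82 with pseudocounts of 0.01 and 1, and 124 with no fold threshold. Leaving out 1 library gave 36 to 184, with 36 without NDKO library 4, 42 without HFKO library 2, 44 without HFKO library 1, 47 without HFKO library 4, 48 without NDWT library 3, 52 without NDKO library 1, 53 without HFWT library 3, 57 without HFWT library 4 and 184 without NDKO library 2. A fit with fewer libraries has less precision, and the cause of each shift was not tested. Genotype DEGs on CDAHFD, 72 in number, became 127 with no filter, 235 with array quality weights, 163 with no fold threshold, 132 with voom and 38 to 84 with 1 library left out, including 47 without HFWT library 2, 45 without HFWT library 3, 47 without HFKO library 1 and 38 without HFKO library 4. Genotype DEGs on the control diet, 693, became 393 with a pseudocount of 1, 1899 with no fold threshold and 539 to 774 with 1 library left out. Diet DEGs, 7083 in WT and 6669 in null-labelled mice, became 6781 to 7204 and 6386 to 6777 with 1 library left out, and 10406 in null-labelled mice with no fold threshold. Scaling turned their split of higher and lower from 6412 and 671 to 3299 and 2242 (median of ratios) or 2514 and 2562 (quantile) in WT, and from 6088 and 581 to 3225 and 1980 or 2421 and 2186 in null-labelled mice. The split of genotype DEGs, 253 higher and 440 lower on the control diet and 24 and 48 on CDAHFD, became 348 and 329 and 38 and 27 with median of ratios scaling, and 246 and 236 and 65 and 39 with quantile normalization. The 16 listed interaction DEGs became 33 with array quality weights and 10 to 26 with 1 library left out (10 without NDKO library 4 or HFKO library 1, 25 without NDWT library 4, 26 without NDKO library 2).

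Same-numbered libraries shared only a number. With the replicate number as a block, 86 genes passed (44 positive, 42 negative; 71 of the 94 among them).

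Depth limits genes with few fragments, and the Hspa1 and Gsta copies share reads.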

Other observations

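Within 100 kb of each other lay 5 pairs of interaction DEGs, and both members of each pair had the same sign. Hspa1b and Hspa1a lay 9960 bases apart on chromosome 17, Asl and Crcp 4157 bases apart on chromosome 5, Gpd1 and Lima1 53464 bases apart on chromosome 15, and Oat and Lhpp 34239 bases apart on chromosome 7. Gm16907 and 2010111I01Rik overlapped by 7547 bases on chromosome 13. The distance was chosen after the positions were seen, and no test was made of how often neighbours share a sign.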
